A study of Mus musculus with 16 samples.

Results

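The clustered protocadherins are cell-surface adhesion proteins encoded by 3 neighboring gene clusters, alpha, beta and gamma, on mouse chromosome 18. Members were taken as the rows of the deposited expression table whose symbol starts with Pcdha, Pcdhb or Pcdhg, with pseudogene names left out, and 24 of 39017 genes met this rule. They were 1 alpha row, 22 beta rows (Pcdhb1 to Pcdhb22) and 1 gamma row. The series holds 16 RNA-seq libraries from 2 brain regions, the ventral midbrain (vMB) and the prefrontal cortex (PFC), of 13-week-old male C57BL/6JRcc mice. The 4 groups were vMB Mutant, vMB WT, PFC Mutant and PFC WT, with 4 libraries each, and the study asked how the transcriptome of *Cdh2* knock-in mice departs from WT. Mutant mice were homozygous for the H150Y substitution in *Cdh2*, which encodes N-cadherin, a classical cadherin of synaptic and other cell junctions. They came from a CRISPR/Cas9 knock-in with 2 founder lines, and which line a library came from is not stated. All animals had undergone behavioral testing and were perfused with phosphate-buffered saline and then formaldehyde, after which one hemisphere was frozen and micro-dissected.

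Each alpha or gamma transcript starts at one of many variable exons, which encodes the extracellular and transmembrane parts, and is spliced to constant exons shared by its cluster, whereas each beta gene is a single exon with no shared constant part. A neuron switches on a small, largely random set of these promoters, a choice that depends on the DNA-binding factor CTCF, the cohesin ring and DNA methylation. The resulting mixture on the cell surface binds only a matching mixture on another membrane, by which sister branches of a neuron recognize and avoid each other, and the family also acts in neuronal survival and in the spread of serotonergic axons. The C-type genes (Pcdhac1, Pcdhac2, Pcdhgc3, Pcdhgc4 and Pcdhgc5) follow other rules and are switched on more uniformly.

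The GENCODE vM21 annotation of GRCm38 places 14 alpha, 22 beta and 22 gamma genes on the plus strand of chromosome 18, from 36930184 to 37187661, from 37264938 to 37524479 and from 37661793 to 37841873. *Cdh2* lies on the minus strand of the same chromosome, from 16588877 to 16809246, which is 20.1 Mb from the first alpha gene. Of these 58 genes, 24 had an identifier in the deposited table. The alpha row carries the symbol Pcdha2 (ENSMUSG00000007440) but is described as protocadherin alpha 11. The gamma row carries the symbol Pcdhga9 (ENSMUSG00000023036) but is described as gamma subfamily C 4. None of the C-type genes has a row under its own symbol, and the sources do not say whether the alpha and gamma rows count all transcripts of their clusters. They are therefore called the alpha row and the gamma row, and no single isoform is meant.

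Values are read counts that the authors normalized between libraries with DESeq2, so they are relative levels within a gene. The summed values of a library lay between 8.69 M and 10.03 M, and the estimated depth lay between 7.74 M and 11.3 M reads assigned to genes. The tissue labels were checked on marker genes. All 9 rows of cortical projection neuron markers were lower in vMB WT than in PFC WT (median log2 difference -3.54), and 5 of 6 tested midbrain dopamine neuron markers were higher (median 4.08), as were 3 of 3 serotonin neuron markers (median 5.77). *Cdh2* itself had 1110, 1043, 590 and 574 in the vMB Mutant libraries, against 1082, 1115, 1148 and 1124 in vMB WT. In the PFC it had 522, 780, 663 and 577 in Mutant, against 1103, 1165, 1023 and 923 in WT. The Mutant values were lower than every WT value in the PFC, while 1 vMB Mutant library lay within the WT range. As the mean of both tissues the difference was -0.62 on the log2 scale (SE 0.13, adjusted p = 0.00418 in limma). In the vMB alone it was -0.50 (SE 0.18, adjusted p = 0.107), and in the PFC alone -0.74 (SE 0.18, adjusted p = 0.0745). Neither tissue alone passed by the rule given below for the family, whereas the paper, which used DESeq2, reports *Cdh2* as downregulated. A point substitution need not change the transcript level, so these values do not check the genotype labels.

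All 24 members had a mean above 0 over the 16 libraries, and 23 had a mean of at least 10, namely the alpha row, 21 of 22 beta genes and the gamma row. By group, 23 members reached a mean of 10 in vMB Mutant, 23 in vMB WT, 21 in PFC Mutant and 23 in PFC WT. In PFC Mutant Pcdhb6 and Pcdhb8 did not reach it, with means of 8.95 and 9.41. A mean of 50 was reached by 10 members in vMB Mutant, 13 in vMB WT, 7 in PFC Mutant and 10 in PFC WT, always including the alpha and gamma rows. The smallest member above the minimum was Pcdhb6, with a mean of 15.1, and the only one below it was Pcdhb1, with 0.309. For the beta genes the normalized values were whole multiples of the value of 1 read in all 16 libraries (within 0.01 of a read), so their reads could be recovered. The alpha and gamma rows met this in 0 of the 16 libraries, so no reads are given for them. Pcdhb1 had 5 reads in all, which came from 3 libraries, and none in the 4 vMB Mutant libraries, where a count of 0 allows up to 3 reads, a normalized value of 2.35 to 2.74. This limit covers counting error only, and no difference in Pcdhb1 was detectable at this depth. The other 21 beta genes had between 4 and 146 reads in a library, with a median of 38.

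The clusters differed widely in the reads their rows received. The gamma row had a mean of 4670 over the 16 libraries and stood above 98.7% of the 14814 tested genes, and the alpha row had a mean of 1209 and stood above 90.1%. All 22 beta genes lay below the median of the tested genes, which was 214.1. The beta genes summed to a median of 939 in vMB Mutant, 1031 in vMB WT, 811 in PFC Mutant and 908 in PFC WT. The single alpha row had medians of 1050 in vMB Mutant, 1094 in vMB WT, 1267 in PFC Mutant and 1471 in PFC WT, each above the beta sum of its group. These values are as counted and not corrected for transcript length, so they do not rank the clusters by level.

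**Figure D1:**
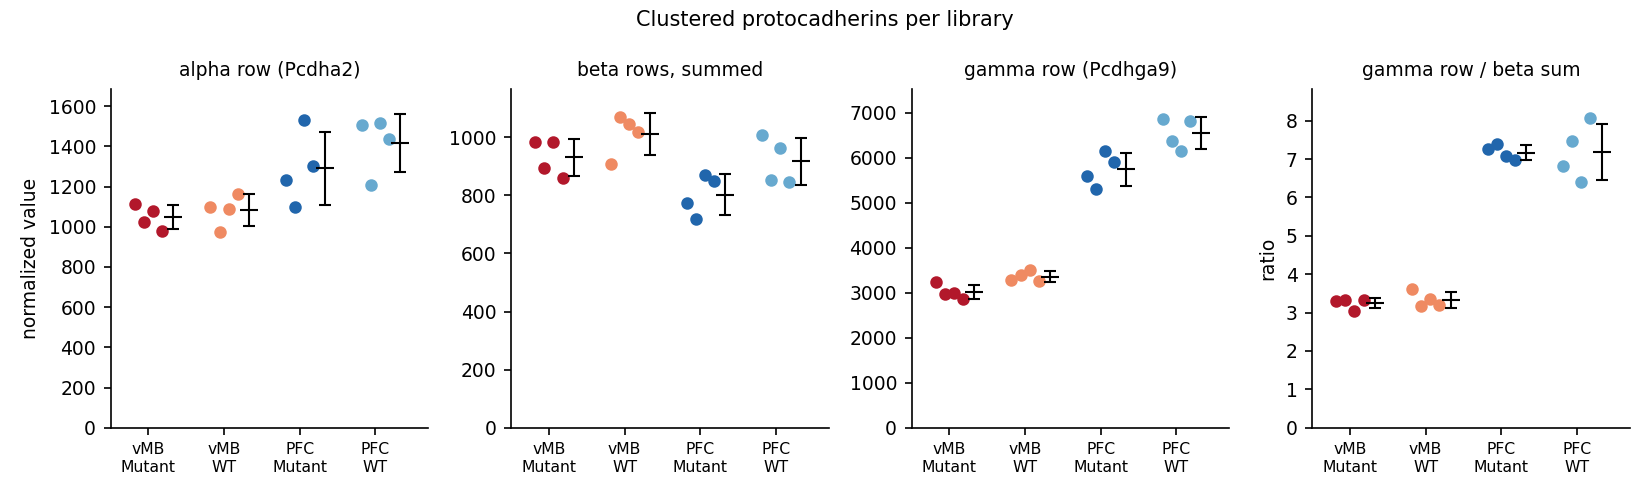
Normalized value of the alpha row, the 22 summed beta genes and the gamma row, and the ratio of the gamma row to the beta sum, in each library (points) of the 4 groups, with the group mean and SD (bars, n = 4). The gamma row lies between 2862 and 3516 in the vMB libraries and between 5312 and 6873 in the PFC libraries, whereas the ranges of the beta sum overlap between the tissues.

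The beta genes spanned a wide range, and Pcdhb17, Pcdhb9 and Pcdhb20 received the most reads over the 16 libraries. Pcdhb17 had means of 98.5 ± 6.42 in vMB Mutant, 112 ± 14.6 in vMB WT, 117 ± 10.8 in PFC Mutant and 127 ± 16.6 in PFC WT (SD, n = 4 each). Pcdhb9 had 90.5 ± 13.7 in vMB Mutant, 92.2 ± 7.76 in vMB WT, 75.0 ± 14.2 in PFC Mutant and 76.8 ± 10.8 in PFC WT. Pcdhb20 had 61.8 ± 9.90 in vMB Mutant, 60.6 ± 4.97 in vMB WT, 75.8 ± 14.6 in PFC Mutant and 78.6 ± 4.38 in PFC WT. Pcdhb17 made up 10.6% of the beta sum in vMB Mutant, 11.05% in vMB WT, 14.6% in PFC Mutant and 13.8% in PFC WT, and ranked first in all 4 groups. At the low end, Pcdhb2, Pcdhb4, Pcdhb6 and Pcdhb8 each had a mean under 20 over the 16 libraries (16.6, 16.3, 15.1 and 19.8).

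Beta genes differ in length, with 2.588 to 8.695 kb of annotated exon, so levels between genes were also compared per kb. On that scale Pcdhb9 was highest, with a normalized value of 27.4 per kb, followed by Pcdhb17 with 24.4, Pcdhb20 with 19.5 and Pcdhb12 with 18.2. The lowest after Pcdhb1 were Pcdhb6 with 4.02 per kb and Pcdhb4 with 4.38. The order of the genes along the cluster was only weakly related to the value per kb, with a Pearson r of 0.24 and a Spearman rho of 0.25 over the 22 genes, which share all libraries. The 3 leading genes are not neighbors, since each takes the position in the cluster that its number gives. Pcdhb12 has an annotated antisense gene, Gm37446, over its exon, and 62.8% of the 60-base stretches of Pcdhb12 also occur in that gene. The counting is not stated to use strand, so how reads in the stretches that these 2 genes share were assigned is not known. The exons of Pcdhb21 and Pcdhb22 overlap, so that the levels of these 3 Pcdhb genes are uncertain. In the other beta genes at most 6.28% of 60-base stretches (Pcdhb9) and 12.97% of 40-base stretches (Pcdhb7) occurred in another annotated gene (reads were 60 bases long before trimming and were kept down to 40 bases).

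**Figure D2:**
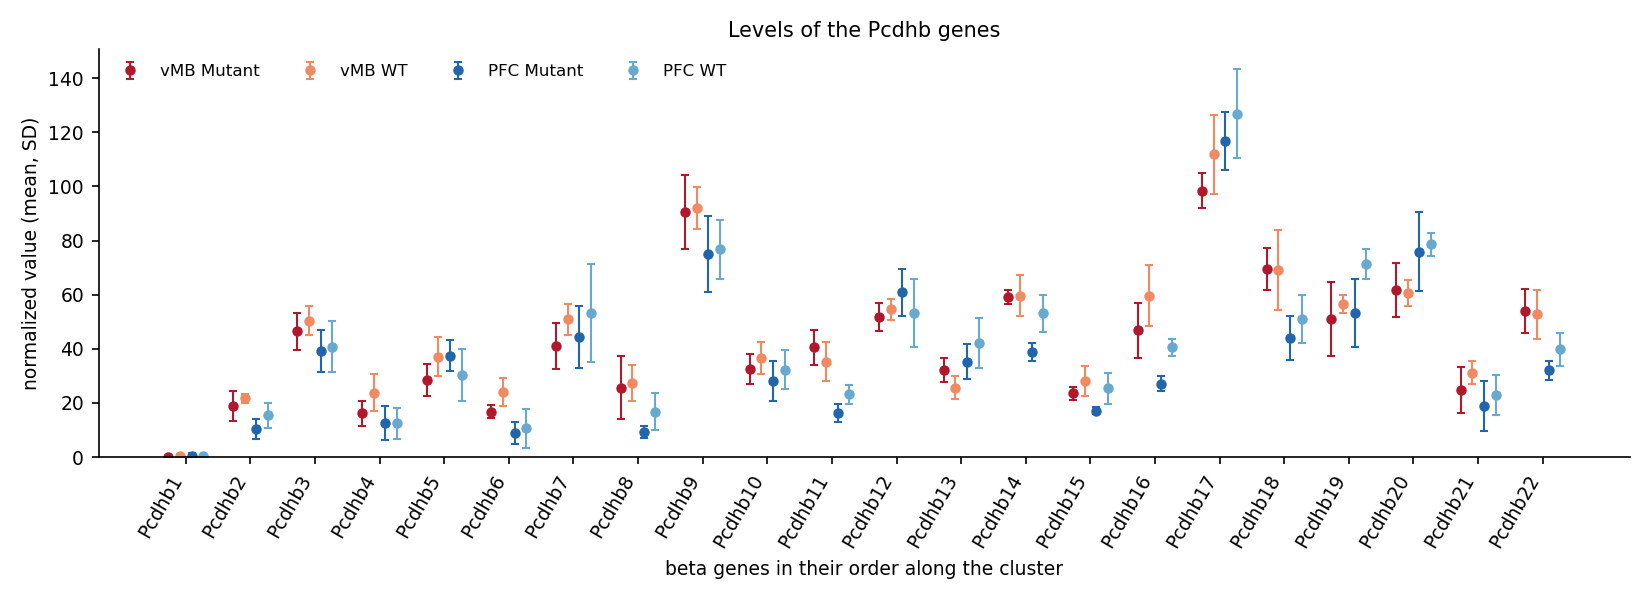
Mean normalized value of each of the 22 Pcdhb genes in the 4 groups (points, with the SD of 4 libraries as bars), in their order along the cluster. Pcdhb17 is the highest in every group, Pcdhb1 is near 0, and the low genes Pcdhb2, Pcdhb4, Pcdhb6 and Pcdhb8 lie among the first 8 genes of the array.

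The spread between libraries of a group set a limit on every single beta gene. The variance among the 4 libraries was a median of 1.3 times that expected from counting reads alone, over 84 gene and group pairs, and 55 of these 84 ratios were above 1. The median coefficient of variation was 15.9% in vMB Mutant, 16.3% in vMB WT, 19.2% in PFC Mutant and 22.6% in PFC WT.

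The clearest difference of the family lay between the tissues, in the gamma row. It had 3238, 2975, 2998 and 2862 in the vMB Mutant libraries, against 5608, 5312, 6144 and 5913 in PFC Mutant. In WT it had 3288, 3390, 3516 and 3255 in the vMB, against 6873, 6366, 6161 and 6824 in the PFC. Every vMB library was below every PFC library in both genotypes. The difference was tested with limma, on log2(value + 1) with all 4 groups in one fit and Benjamini-Hochberg adjustment over the 14814 genes with a mean of at least 10. Passing required both an adjusted p no higher than 0.05 and a change of 1.3-fold or more. For the gamma row the difference was -0.93 (SE 0.06, adjusted p = 6.24e-10) in Mutant and -0.96 (SE 0.06, adjusted p = 4.26e-10) in WT mice, and it was also lower in an exact permutation test of the 8 libraries of a genotype (two-sided p = 0.0286, the smallest that 70 splits allow). The ratio of vMB to PFC means was 0.526 in Mutant and 0.513 in WT. Of all tested genes, 9.01% had a WT difference at or below that of the gamma row.

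The alpha row was also lower in the vMB, by less. It had 1112, 1022, 1077 and 979 in vMB Mutant, against 1230, 1099, 1530 and 1304 in PFC Mutant, where 1 vMB library reached the PFC range. In WT it had 1098, 973, 1089 and 1165 in the vMB, against 1507, 1208, 1516 and 1435 in the PFC, with no overlap. The difference was -0.29 (SE 0.09, adjusted p = 0.0131) in Mutant, under the fold minimum, and -0.39 (SE 0.09, adjusted p = 0.00208) in WT, which passed. That call rests on the fold minimum: it was lost when any one of PFC WT libraries 1, 3 and 4 or vMB WT library 2 was left out, after upper-quartile or quantile rescaling and after removal of the trend with transcript length, with adjusted p-values of at most 0.0447.

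The beta genes leaned the other way, and unequally. Of the 21 tested, 14 were higher in the vMB in both genotypes, 5 were lower in both and 2 changed sign between genotypes. The median log2 difference over the beta genes was 0.41 in Mutant and 0.31 in WT, beside 0.02 over all tested genes in each, and it was 0.28 and 0.18 after quantile rescaling, the lowest over the scalings tried. The ratio of the gamma row to the beta sum had a median of 3.31 in vMB Mutant and 3.28 in vMB WT, against 7.16 in PFC Mutant and 7.14 in PFC WT. The highest vMB ratio was 3.62 and the lowest PFC ratio was 6.40. The ratio of the gamma to the alpha row was likewise below that of every PFC library in each vMB library, with medians of 2.91 and 3.11 in vMB Mutant and vMB WT and of 4.55 and 4.66 in PFC Mutant and PFC WT.

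In Mutant mice 9 of 23 tested members passed between vMB and PFC, which was 39.1%, beside 47.4% of all tested genes. The gamma row was lower, beside 23.6% of all tested genes, and 8 beta genes were higher, beside 23.7%. Pcdhb8 had 24.2, 15.2, 42.3 and 21.03 in vMB Mutant, against 10.4, 6.16, 11.02 and 10.1 in PFC Mutant, a difference of 1.29 (SE 0.33, adjusted p = 0.00276 in limma). Pcdhb11 had 33.4, 49.1, 40.8 and 39.3 in vMB Mutant, against 14.2, 16.4, 20.9 and 13.4 in PFC Mutant, a difference of 1.28 (SE 0.21, adjusted p = 4.5e-05). The groups did not overlap in either gene. The PFC Mutant values of Pcdhb8 stand for 8, 6, 10 and 9 reads. Their mean of 9.41 is under the minimum of 10, which Pcdhb8 reached through the other groups. The other genes that passed were Pcdhb6 (0.92), Pcdhb2 (0.84), Pcdhb16 (0.75), Pcdhb22 (0.73), Pcdhb18 (0.66) and Pcdhb14 (0.59), with SEs of 0.14 to 0.38. Of these, Pcdhb6 and Pcdhb2 overlapped between the tissues, and the call of Pcdhb6 (adjusted p = 0.0474) was lost in 12 of the 16 fits that left out 1 library (all but PFC WT libraries 2, 3 and 4 and PFC Mutant library 3), with adjusted p-values of up to 0.157, while that of Pcdhb2 was lost without PFC Mutant library 2 or vMB Mutant library 1, 2 or 3 (up to 0.106). The calls of Pcdhb6 and Pcdhb2 were also lost with no filter and after quantile rescaling (adjusted p of 0.0541 to 0.0897). Groups did not overlap for 8 members, 7 higher and 1 lower, beside 26.2% and 25.0% of all tested genes. Pcdhb15 was the one such member that did not pass.

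In WT mice 7 of 23 members passed, which was 30.4%, beside 43.6% of all tested genes. The gamma row, the alpha row and Pcdhb13 were lower in the vMB, beside 21.6% of all tested genes, and Pcdhb6, Pcdhb4, Pcdhb11 and Pcdhb16 were higher, beside 22.0%. Pcdhb13 had 24.6, 29.4, 20.2 and 28.4 in vMB WT, against 54.3, 33.9, 44.0 and 36.6 in PFC WT, a difference of -0.69 (SE 0.20, adjusted p = 0.00724). Pcdhb6 had 19.9, 24.8, 20.2 and 31.3 in vMB WT, against 9.97, 4.52, 20.9 and 7.07 in PFC WT, a difference of 1.28 (SE 0.38, adjusted p = 0.00888), and PFC WT library 3 lay within the vMB range. Pcdhb11 and Pcdhb16 had no overlap, with differences of 0.58 (SE 0.21, adjusted p = 0.0263) and 0.53 (SE 0.18, adjusted p = 0.0202), and Pcdhb4 differed by 0.93 (SE 0.38, adjusted p = 0.0437) with overlapping groups. The call of Pcdhb4 was lost without PFC WT library 2 or 4 or vMB WT library 1, 2 or 3 (adjusted p of up to 0.136). That of Pcdhb11 was lost without PFC WT library 1 or 3 or vMB WT library 2 or 3 (up to 0.0798), and that of Pcdhb16 without PFC WT library 4 or vMB WT library 3 (up to 0.0768). After quantile rescaling the calls of Pcdhb4, Pcdhb11 and Pcdhb16 were lost (adjusted p of 0.0996, 0.0813 and 0.0616). With no filter those of Pcdhb4 and Pcdhb11 were lost (0.0835 and 0.0671), and with the length trend removed that of Pcdhb4 (0.0546). The WT calls of Pcdhb6 and Pcdhb13 were kept in these fits. The groups did not overlap for 7 members, 2 higher and 5 lower, beside 25.4% and 24.3% of all tested genes. Of these, 2 did not pass, namely Pcdhb19 and Pcdhb20, both lower in the vMB.

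**Figure D3:**
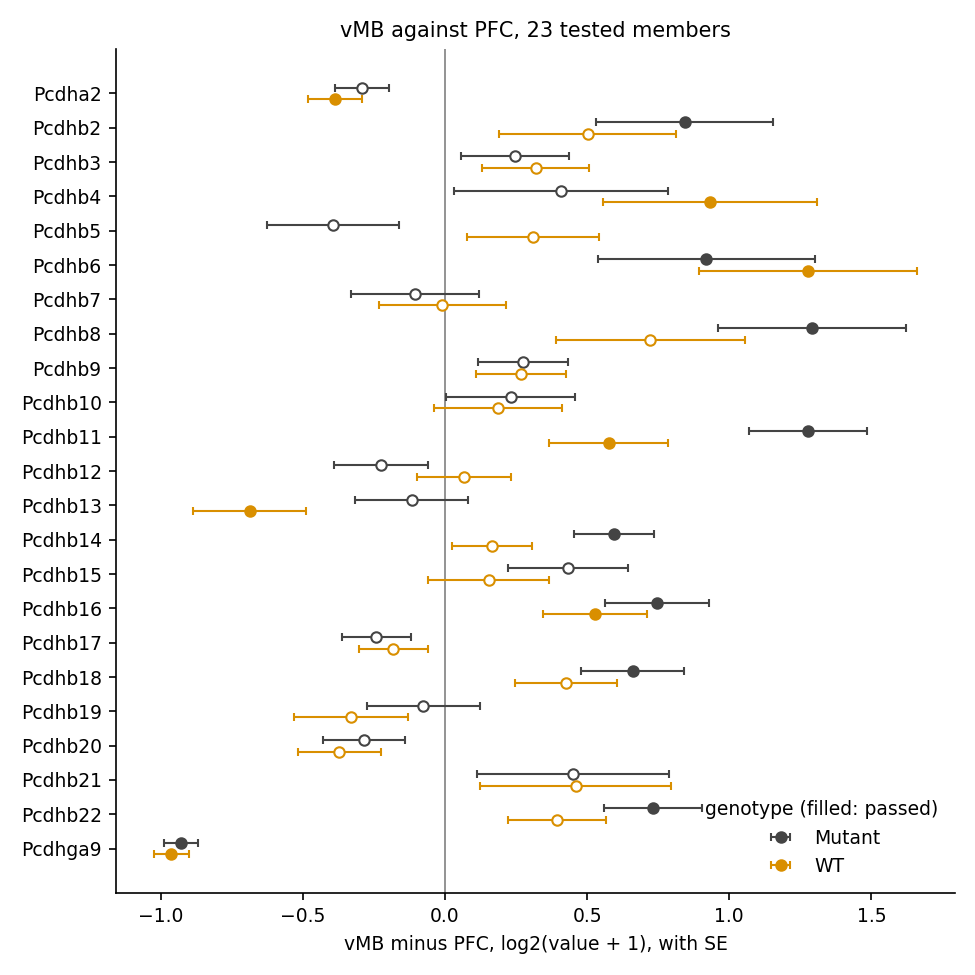
Difference between vMB and PFC (x axis, log2 of value + 1, points with SE) for the 23 tested members in Mutant and in WT mice, in their order along the chromosome, with filled points for members that passed. The gamma row lies near -0.9 in both genotypes, and Pcdhb11, Pcdhb6 and Pcdhb16 are filled on the higher side in both.

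The Mutant and WT comparisons between tissues have no library in common. Both take the spread of a gene from the same fit of all 16 libraries, so their p-values are not independent. The gamma row, Pcdhb6, Pcdhb11 and Pcdhb16 passed in both with the same direction. These make 4 of 9 members of the Mutant list (44.4%) and 4 of 7 of the WT list (57.1%). Pcdhb6 had a mean of 9.78 over the PFC libraries, with 4 to 18 reads in each. It reached the minimum of 10 through the vMB libraries, where its mean was 20.4. With no filter its Mutant call was lost (adjusted p = 0.0897 in limma), while its WT call was kept. Of all tested genes, 5568 passed in both with the same direction, which makes 79.3% of their Mutant list and 86.2% of their WT list. Over the 21 beta genes the Mutant and WT differences had a Pearson r of 0.72 and a Spearman rho of 0.79, given as a description of genes that share a cluster and a scale. Genes of low level had the larger vMB excess, with a Spearman rho of -0.53 in Mutant and -0.67 in WT between the mean value and the difference. The mean and the difference come from the same libraries, and genes of low level have few reads. The part of counting error in this relation was not tested. The order along the cluster was related to the difference with a rho of -0.09 in Mutant and -0.37 in WT. Of the 3 leading beta genes, Pcdhb17 and Pcdhb20 were lower in the vMB in both genotypes by sign, whereas Pcdhb9 was higher by sign (0.28 in Mutant and 0.27 in WT). None of these passed.

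**Figure D4:**
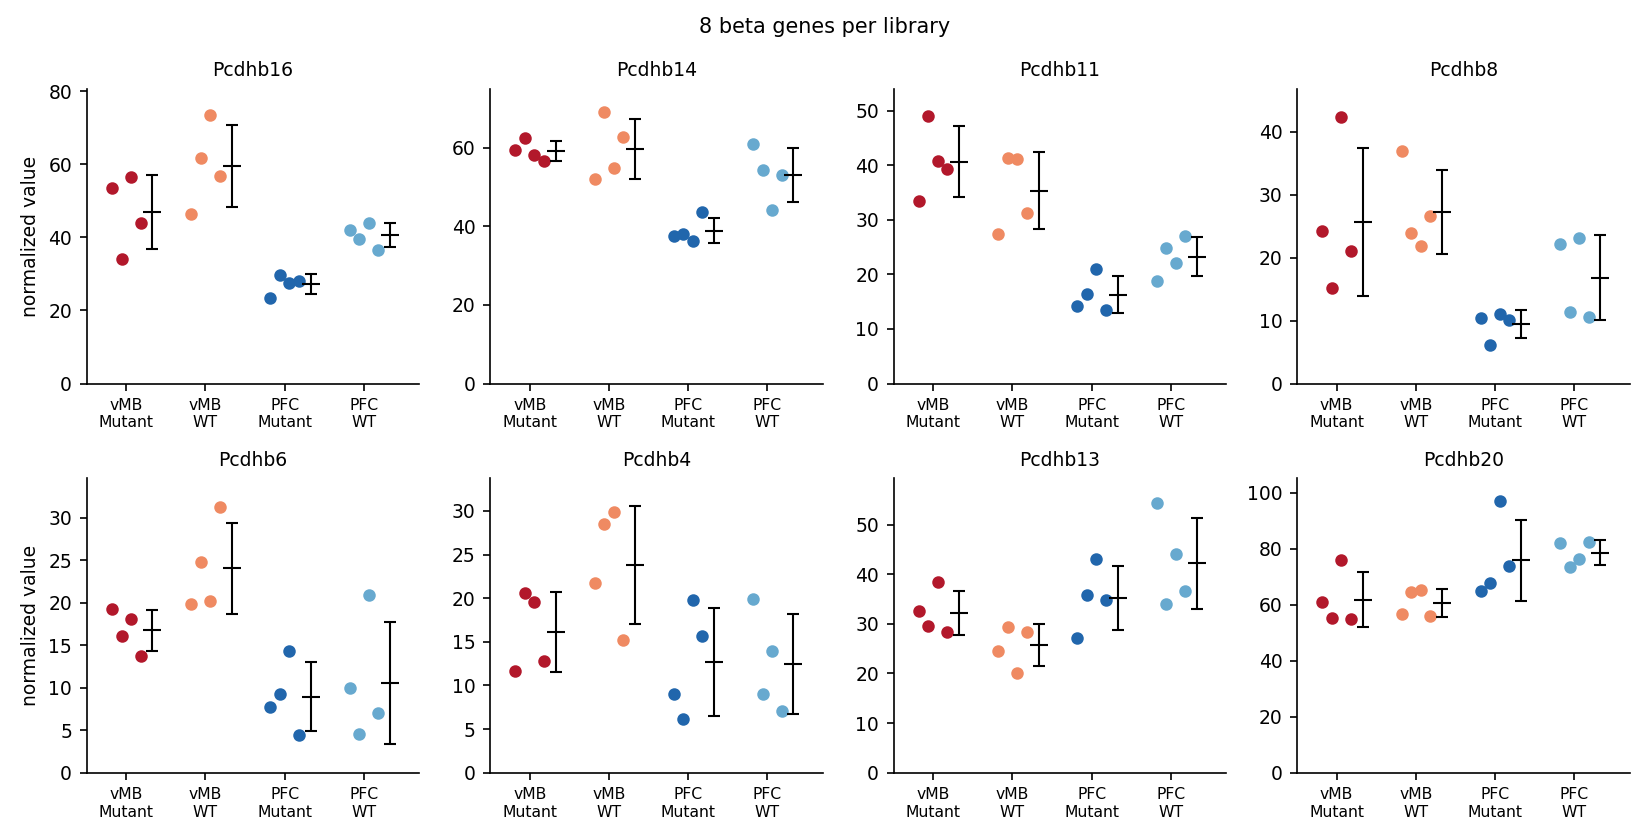
Normalized value of 8 Pcdhb genes in each library (points) of the 4 groups, with the group mean and SD (bars, n = 4). Pcdhb16, Pcdhb14, Pcdhb11 and Pcdhb8 are higher in vMB Mutant than in PFC Mutant with no overlap, Pcdhb13 is lower in vMB WT than in PFC WT, and Pcdhb16 is lower in PFC Mutant than in PFC WT.

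The tissues differ in their cells, and these are bulk samples, in which fewer cells of a type and less RNA per cell cannot be told apart. Summed pan-neuronal markers lay between 39070 and 44026 in vMB Mutant and 40769 and 42119 in vMB WT, against 49571 to 58843 in PFC Mutant and 54032 to 61233 in PFC WT, and 4 of 6 passed in WT, 3 of them lower in the vMB. Summed oligodendrocyte markers lay between 157436 and 173033 in vMB Mutant and 136071 and 162870 in vMB WT, against 26798 to 88705 in PFC Mutant and 23173 to 67710 in PFC WT, and 7 of 7 were higher in the vMB. In WT 43.6% of all tested genes passed between the tissues, 21.6% as lower and 22.0% as higher in the vMB. None of these 13 markers was at 0 in any group. The part of cell makeup in the gamma, alpha and beta differences was not tested.

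Between the genotypes few members passed. In the vMB 0 of 23 tested members passed between Mutant and WT, beside 3.25% of all tested genes (481), and 1 had an unadjusted p under 0.05, beside 20.9% of all tested genes. In the PFC 0 members passed, beside 0.142% of all tested genes (21), and 7 had an unadjusted p under 0.05, beside 17.1%. As the mean of both tissues, 1 member passed, Pcdhb16, beside 2.59% of all tested genes (383), and it was lower, beside 1.64%. In that comparison 5 members had an unadjusted p under 0.05, beside 27.5% of all tested genes. The difference between the vMB and the PFC change passed for 0 members, beside 0.0% of all tested genes by this rule, and its unadjusted p was under 0.05 for 3 members, Pcdhb5, Pcdhb11 and Pcdhb14, beside 5.83%.

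Pcdhb16 was lower in Mutant mice. It had 53.4, 33.9, 56.5 and 43.9 in vMB Mutant, against 46.4, 61.6, 73.5 and 56.9 in vMB WT, with overlapping groups. In the PFC it had 23.3, 29.7, 27.5 and 28.0 in Mutant, against 42.1, 39.6, 44.0 and 36.6 in WT, with none. These PFC values stand for 18, 29, 25 and 25 reads in Mutant and 38, 35, 38 and 31 in WT. The log2 difference was -0.35 (SE 0.18, adjusted p = 0.294) in the vMB, -0.56 (SE 0.18, adjusted p = 0.131; exact permutation p = 0.0286) in the PFC and -0.45 (SE 0.13, adjusted p = 0.0265) as the mean of both. The call was lost without PFC Mutant library 1, PFC WT library 3, vMB Mutant library 2 or 4, or vMB WT library 2 or 3 (adjusted p of 0.0152 to 0.0602 over the 16 fits without 1 library), and after removal of the trend with transcript length (-0.42, adjusted p = 0.068).

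The gamma row was lower in Mutant mice by a small amount in both tissues. All 4 Mutant libraries were below all 4 WT libraries in the vMB (2862 to 3238 in Mutant against 3255 to 3516 in WT) and in the PFC (5312 to 6144 in Mutant against 6161 to 6873 in WT). The difference was -0.16 (SE 0.06, adjusted p = 0.133) in the vMB, -0.19 (SE 0.06, adjusted p = 0.126) in the PFC and -0.17 (SE 0.04, adjusted p = 0.0125) as the mean of both, which is under the fold minimum. Without that minimum 13.0% of all tested genes passed as the mean of both tissues. The adjusted p was 0.0673 after removal of the length trend, where the difference was -0.13. The exact permutation test gave p = 0.0286 in each tissue, the smallest it allows. The alpha row differed by -0.04 (SE 0.09, adjusted p = 0.848) in the vMB and -0.14 (SE 0.09, adjusted p = 0.489) in the PFC.

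Besides the gamma row, the groups did not overlap for Pcdhb6 in the vMB and for Pcdhb14 and Pcdhb16 in the PFC, each lower in Mutant. These are 2 of 23 members in the vMB, beside 7.56% of all tested genes that were lower without overlap, and 3 of 23 in the PFC, beside 3.79%. Pcdhb6 had 19.2, 16.1, 18.04 and 13.7 in vMB Mutant, against 19.9, 24.8, 20.2 and 31.3 in vMB WT (difference -0.48, SE 0.38, adjusted p = 0.521 in limma). Pcdhb14 had 37.6, 38.0, 36.4 and 43.7 in PFC Mutant, against 60.9, 54.3, 44.0 and 53.1 in PFC WT (difference -0.43, SE 0.14, adjusted p = 0.132). Neither passed. Pcdhb14 showed no such gap in the vMB, with means of 59.1 ± 2.49 in Mutant and 59.6 ± 7.66 in WT (SD, n = 4 each).

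By sign, 18 of 23 members were lower in Mutant in the vMB and 21 of 23 in the PFC, beside 51.1% and 51.5% of all tested genes. The members are neighboring genes measured in the same libraries and are not independent, so these counts are a description only. After rescaling to one upper quartile these counts were 17 and 20, and after quantile rescaling 17 and 21. The median log2 difference over the 23 members was -0.16 in the vMB and -0.21 in the PFC, beside -0.01 over all tested genes in each. Members on the higher side in the vMB were Pcdhb11, Pcdhb13, Pcdhb18, Pcdhb20 and Pcdhb22, and in the PFC Pcdhb5 and Pcdhb12, none of which passed. The single differences lay between -0.53 and 0.32 in the vMB and between -0.72 and 0.34 in the PFC. All members together had a median of 554 per 1 M of a library's summed value in vMB Mutant, against 619 in vMB WT, and of 782 in PFC Mutant, against 902 in PFC WT. The ranges overlapped in both tissues, at 517 to 590 in vMB Mutant against 585 to 650 in vMB WT, and 726 to 876 in PFC Mutant against 850 to 951 in PFC WT. In every library the gamma row exceeded the alpha row and the beta genes together, so this sum mostly follows the gamma row.

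**Figure D5:**
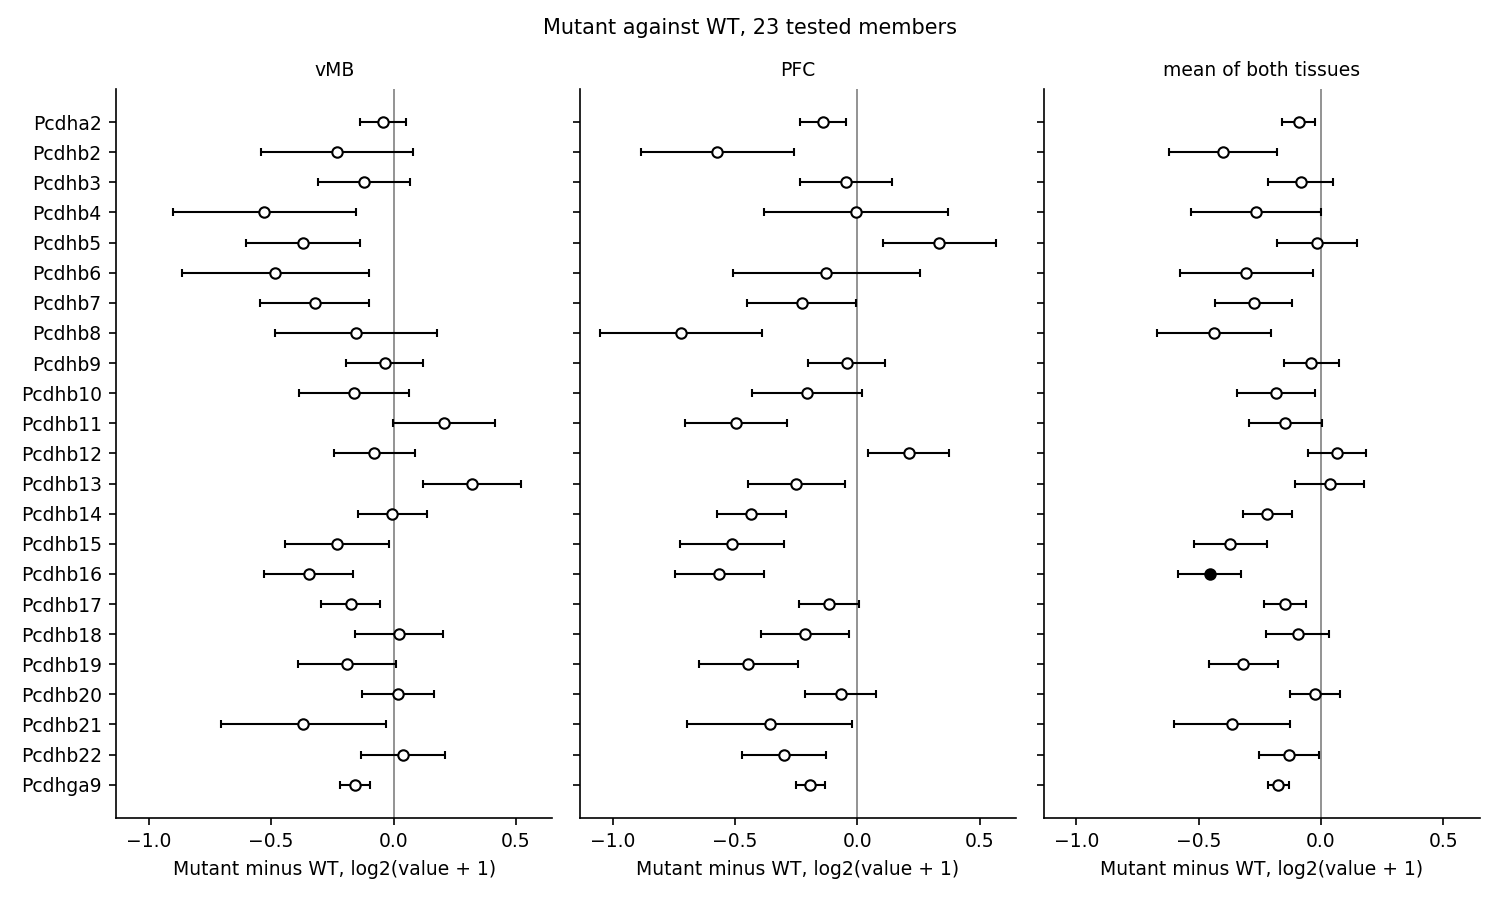
Difference between Mutant and WT (x axis, log2 of value + 1, points with SE) for the 23 tested members in the vMB, in the PFC and as the mean of both tissues, with filled points for members that passed. Pcdhb16 is the one filled point, in the mean of both tissues, and most points lie left of 0.

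Other measures moved with the genotype. A library's slope of log2 value on log2 transcript length, relative to the mean of all libraries, lay between -0.12 and -0.06 in vMB Mutant, against -0.03 and 0.04 in vMB WT, and between -0.03 and 0.03 in PFC Mutant, against 0.06 and 0.10 in PFC WT. The beta genes have a median of 3.71 kb of exon, beside 4.42 kb for all tested genes. The alpha row was given 5.359 kb and the gamma row 5.596 kb, the annotated exon lengths of Pcdha11 and Pcdhgc4. Their values with the length trend removed rest on these lengths, which may not apply if the rows count several isoforms. With the length trend removed, the median over members was -0.14 in the vMB and -0.24 in the PFC, and 18 and 21 of 23 members were still lower. Of 6 endothelial markers 5 were lower by sign in vMB Mutant and 3 passed, with sums of 1609 to 1964 in vMB Mutant, against 1734 to 2146 in vMB WT, and 1648 to 2270 in PFC Mutant, against 2033 to 2242 in PFC WT. Of 4 mural cell markers 4 were lower by sign in vMB Mutant and 1 passed, with sums of 1124 to 1302 in vMB Mutant, against 1186 to 1384 in vMB WT, and 1111 to 1452 in PFC Mutant, against 1259 to 1772 in PFC WT. Of 6 microglia markers 4 were higher by sign in vMB Mutant and 1 passed, with sums of 2489 to 2814 in vMB Mutant, against 2442 to 2635 in vMB WT, and 3693 to 4348 in PFC Mutant, against 2944 to 4223 in PFC WT. Astrocyte markers were lower by sign in PFC Mutant for 8 of 8, and 2 of these had no overlap. Their sums did not overlap in the PFC, with 25420 to 29498 in PFC Mutant, against 31599 to 34007 in PFC WT, whereas they did in the vMB, with 19610 to 23186 in vMB Mutant, against 19806 to 23166 in vMB WT. In the PFC 0 markers of these 4 lists passed, and none was at 0 in any group. Beside these counts, 3.25% of all tested genes passed in the vMB and 0.142% in the PFC. In the PFC 3.79% of all tested genes were lower without overlap. The shares of all tested genes that were lower by sign are those given above. The part of these measures in the member differences was not tested beyond the removal of the length trend.

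Genes that act with the family were read from lists of 23 chromatin factors of promoter choice and 25 partners of the proteins. Of 22 chromatin factors tested, 0 passed between the genotypes in the vMB, in the PFC or as their mean. Of all tested genes 3.25%, 0.142% and 2.59% passed. The median of the factors was -0.10 in each tissue, beside -0.01 over all tested genes. By sign 20 of 22 were lower in the vMB and 18 of 22 in the PFC, beside the shares of all tested genes given above. With the length trend removed, these medians were -0.03 in the vMB and 0.01 in the PFC. In that fit 1 factor passed as higher in vMB Mutant, beside 0.355% of all tested genes. Of the 25 partners 2 passed in the vMB and 0 in the PFC, beside 3.25% and 0.142% of all tested genes. Their medians were -0.08 and -0.07, beside -0.01 over all tested genes in each tissue. *Wasf2*, a subunit of the WAVE complex that drives branched actin and that protocadherins can recruit, had 193, 162, 198 and 173 in vMB Mutant, against 254, 208, 249 and 298 in vMB WT (-0.47, SE 0.13, adjusted p = 0.0376 in limma), with no overlap. It was also lower as the mean of both tissues (-0.39, SE 0.09, adjusted p = 0.00922). *Pdcd10*, an adaptor that binds the cytoplasmic part of alpha and gamma protocadherins, had 504, 359, 492 and 430 in vMB Mutant, against 303, 322, 305 and 307 in vMB WT (0.52, SE 0.13, adjusted p = 0.0249). The call of *Wasf2* as the mean of both tissues was lost after removal of the length trend, after rescaling to one upper quartile, and without PFC Mutant library 3 or 4, PFC WT library 3 or 4, vMB Mutant library 2 or vMB WT library 4. Its vMB call was lost after removal of the length trend and without vMB Mutant library 2 or 4 or vMB WT library 1, 3 or 4 (adjusted p of up to 0.147). That of *Pdcd10* was lost after removal of the length trend and without vMB Mutant library 1, 3 or 4 or vMB WT library 3 or 4 (up to 0.0757).

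Between the tissues more genes of these lists passed, as did more of all tested genes. In Mutant mice 9 of 22 chromatin factors passed, 7 of them lower in the vMB, and 15 of 25 partners, 11 of them lower, beside 47.4% of all tested genes in either direction and 23.6% lower. In WT, 6 of 22 chromatin factors passed, 5 of them lower in the vMB, and 14 of 25 partners passed, 12 of them lower, beside 43.6% and 21.6%. *Ptk2b*, a focal adhesion kinase that protocadherins inhibit, averaged 420 in vMB WT, against 3883 in PFC WT (-3.41, SE 0.47, adjusted p = 7.52e-06 in limma). *Wasf1*, the neuronal subunit of the WAVE complex, averaged 482 in vMB WT, against 1739 in PFC WT (-1.86, SE 0.15, adjusted p = 1.16e-08). *Ret*, a receptor kinase found with protocadherins in neurons, was higher, at 776 in vMB WT, against 35.2 in PFC WT (4.47, SE 0.18, adjusted p = 2.84e-12). The other partner that passed as higher was *Psenen*, a subunit of the gamma-secretase that cleaves protocadherins, with 318.5 in vMB WT, against 243 in PFC WT (0.38, SE 0.14, adjusted p = 0.0344) and overlapping groups. Among the chromatin factors *Tet2* and *Tet3*, which oxidize methylated cytosine, differed by -0.94 each, and *Rest*, a repressor of neuronal genes, by 0.92. *Ctcf* itself was under the fold minimum, with differences of -0.25 in Mutant and -0.20 in WT. These 8 genes were chosen after their values were seen.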

How the data were processed

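Poly-A libraries of single-end reads were trimmed by the authors with Cutadapt 1.8.3, mapped with TopHat2 2.0.10 and counted with HTSeq-count 0.6.1p1. The deposited values, treated as a signal, are these counts normalized by the authors with DESeq2, of a version the sources do not state. The methods name the human genome, while the deposited identifiers are mouse genes, so the mouse build, the annotation and any use of strand in counting are not stated. Columns of the authors' own fold changes, p-values and pass marks were not used. Between 62.2% and 66.2% of a library's low values were whole multiples of 1 read, so no test on counts was run.

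Values were taken as log2(value + 1). Of 39017 genes, 14814 with a mean of at least 10 entered a limma 3.58.1 fit (R 4.3.3) of the 4 groups with a mean-variance trend, and its two-sided p-values received Benjamini-Hochberg adjustment across the whole table of tested genes. The code was tested on simulated data. Titles carry a code that 4 PFC libraries share with a vMB library of the same genotype, and tissues were dissected from one hemisphere, but the labels do not say that a code marks an animal. Libraries were therefore fitted as independent, with the code as a correlated block as an alternative, and the p-values reflect only how these libraries vary. Single genes were compared by an exact permutation test over 70 splits. Exon lengths and positions come from GENCODE vM21, on GRCm38, and were found for 14659 tested genes (99.0%).

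The members and lists were chosen with earlier results of these data known. Named by rule were *Cdh2*, the C-type genes, the 3 highest members of each kind, members called between genotypes, the 5 highest and 5 lowest of those called without overlap between vMB WT and PFC WT, members next to the mean of 10, and pathway genes called between genotypes. The other members and the tissue values of the pathway genes were chosen after their values were seen. Sequences of the members are not reported here. The closing section gives the alternatives, which were other pseudocounts, filters, scalings, fold minimums and models, a replicate block, removal of the trend with transcript length (loess, span 0.3) and each library left out in turn.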

Additional observations from a re-analysis of the deposited data

Results flagged for a closer look

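A library stood apart from the other 3 of its group in 3 of the 96 sets of 4 values examined (23 tested members and the beta sum, in 4 groups), by a gap of most of the group's range. Chance alone gives about 1 in 20 such sets. Pcdhb5 had 45.9 in PFC Mutant library 4, and the other libraries of the group had 33.9 to 35.3. Pcdhb17, the highest beta gene, had 151.7 in PFC WT library 1, and the others had 117.6 to 120.3. Pcdhb22 had 26.7 in PFC Mutant library 2, and the others had 33.6 to 34.2.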

How the results depend on the processing

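For 27 log2 differences of named genes, 725 of 819 values under an alternative kept their direction and their side of the threshold, 92 no longer passed, 2 passed only with no fold minimum (the gamma row as the mean of both tissues and the alpha row in Mutant between tissues) and 0 changed direction. The count of members called as the mean of both tissues was 1, and it was 2 with no fold minimum and 0 with a fold of 1.5, a minimum mean of 50, no filter, the length trend removed, or that with the replicate block, and 0 to 1 without single libraries. Between vMB WT and PFC WT the count was 7, and it was 4 with a fold of 1.5, 2 with a mean of at least 50 and 4 after quantile rescaling, and 5 to 8 without single libraries. Between vMB Mutant and PFC Mutant it was 9, 3 with a mean of at least 50 and 7 to 9 without single libraries. The counts of 0 between genotypes in the vMB, in the PFC and for their difference were 0 under each alternative run. Of the pathway genes, 2 were called in the vMB, and 4 with no fold minimum, 1 with no filter, no mean-variance trend, the replicate block or the length trend removed, and 0 with a fold of 1.5 or with block and length together, and 0 to 2 without single libraries. In the PFC 0 were called, and 0 to 3 without single libraries (3 without PFC Mutant library 3 and 1 without PFC WT library 2). As the mean of both tissues 1 was called, and 9 with no fold minimum, 2 after quantile rescaling or with the replicate block, 0 with a fold of 1.5, the length trend removed or both corrections, and 0 to 2 without single libraries. The mean of at least 50 drops most beta genes, and the cause of the other changes was not tested.

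Deviations of same-numbered libraries correlated between -0.13 and 0.09, which shows no pairing by the replicate numbers of the titles but cannot exclude it. Deviations of the 4 pairs of libraries with the same title code correlated between -0.03 and 0.01, and with that code as a correlated block the counts of called members and pathway genes were those given. With the replicate block the members called were 0 in the vMB, 0 in the PFC, 1 as the mean of both tissues, 9 between tissues in Mutant and 8 in WT. Over all tested genes, rescaling to one upper quartile gave 258 higher and 241 lower calls between vMB Mutant and vMB WT, against 182 and 299 as deposited. Depth limits the beta genes, whose median was 38 reads in a library.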
